A study of Mus musculus with 3 samples.

Results

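Axon guidance ligands and receptors were examined in FACS-isolated tdTomato-positive hippocampal cells. The members were the protein-coding genes whose symbols name them as semaphorins of classes 3 to 7, plexins, neuropilins, Eph receptors, ephrins A and B, netrins, Unc5 receptors, Dcc, Slits or Robos. The rule used names only and no measured value. It gave 68 genes of the 52636 in the count table, of which 34 encode ligands and 34 encode receptors.

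The cells came from hippocampi of male Camk2a-Cre +/-, Ai14 +/- mice on the C57BL/6J background at postnatal day 28 to 32. Camk2a-Cre drives recombination from the promoter of an excitatory neuron kinase, and Ai14 is a reporter that makes tdTomato, a red fluorescent protein, after recombination. There were 3 biological replicates, each a pool of 2 to 4 mice, of this 1 group, so the series holds no comparison between conditions. Poly(A) RNA was sequenced, and reads were counted per gene by the authors.

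Guidance cues steer growing axons by attraction or repulsion, and many stay in use in the mature brain, where they shape dendritic spines and synapses. Semaphorins signal through plexins, and most secreted class 3 semaphorins need a neuropilin as co-receptor. Ephrins are held to the membrane of the neighbouring cell and bind Eph receptor tyrosine kinases, netrins bind Dcc and Unc5 receptors, and Slits bind Robo1 and Robo2.

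Levels are given as TPM (transcripts per 1000000), in which each count is divided by the exon length of its gene and then scaled so that all nuclear protein-coding genes have the same sum in each replicate. Depth was 48159841, 25686630 and 15833075 counts in replicates 1, 2 and 3, of which 247614, 133206 and 79025 fell on the members. The label calls the cells CA1 pyramidal neurons, and all 8 markers of these neurons were detected at a median of 242 ± 8.08 TPM (SD, n = 3). All 3 dentate granule markers were detected too, C1ql2 at 621 ± 31.3 TPM and Prox1 at 151 ± 19.0 TPM (SD, n = 3), as were 8 of 8 oligodendrocyte, 6 of 7 astrocyte and 5 of 5 microglial markers and 2 of 5 interneuron markers. The members are therefore described for the tdTomato-positive sort and not for a pure cell type. In such bulk samples, fewer cells of a type and less RNA per cell cannot be told apart.

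Most members were expressed. A CPM (counts per 1000000 of the replicate) of at least 1 in each replicate, used here as the limit of detection, was reached by 62 of the 68 members (91.2%), while 57.0% of all nuclear protein-coding genes reached it. The detected members were 32 of the 34 receptors and 30 of the 34 ligands. A mean of at least 10 TPM was found for 70.6% of the members and 47.0% of all nuclear protein-coding genes, and a mean of at least 100 TPM for 20.6% and 11.3%. The median member stood at 26.0 ± 1.35 TPM and the median nuclear protein-coding gene at 7.07 ± 0.481 TPM (SD, n = 3), a difference of 1.74 ± 0.11 on the log2(TPM + 1) scale. Among detected genes the order was the opposite, with a median of 29.96 ± 1.64 TPM for the members and 37.5 ± 0.815 TPM for all nuclear protein-coding genes. At a mean of at least 100 TPM stood 22.6% of the 62 detected members and 19.9% of the 12471 detected nuclear protein-coding genes. The limit is on CPM, which does not correct for length, and the members are longer than most genes, as given below.

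**Figure D1:**
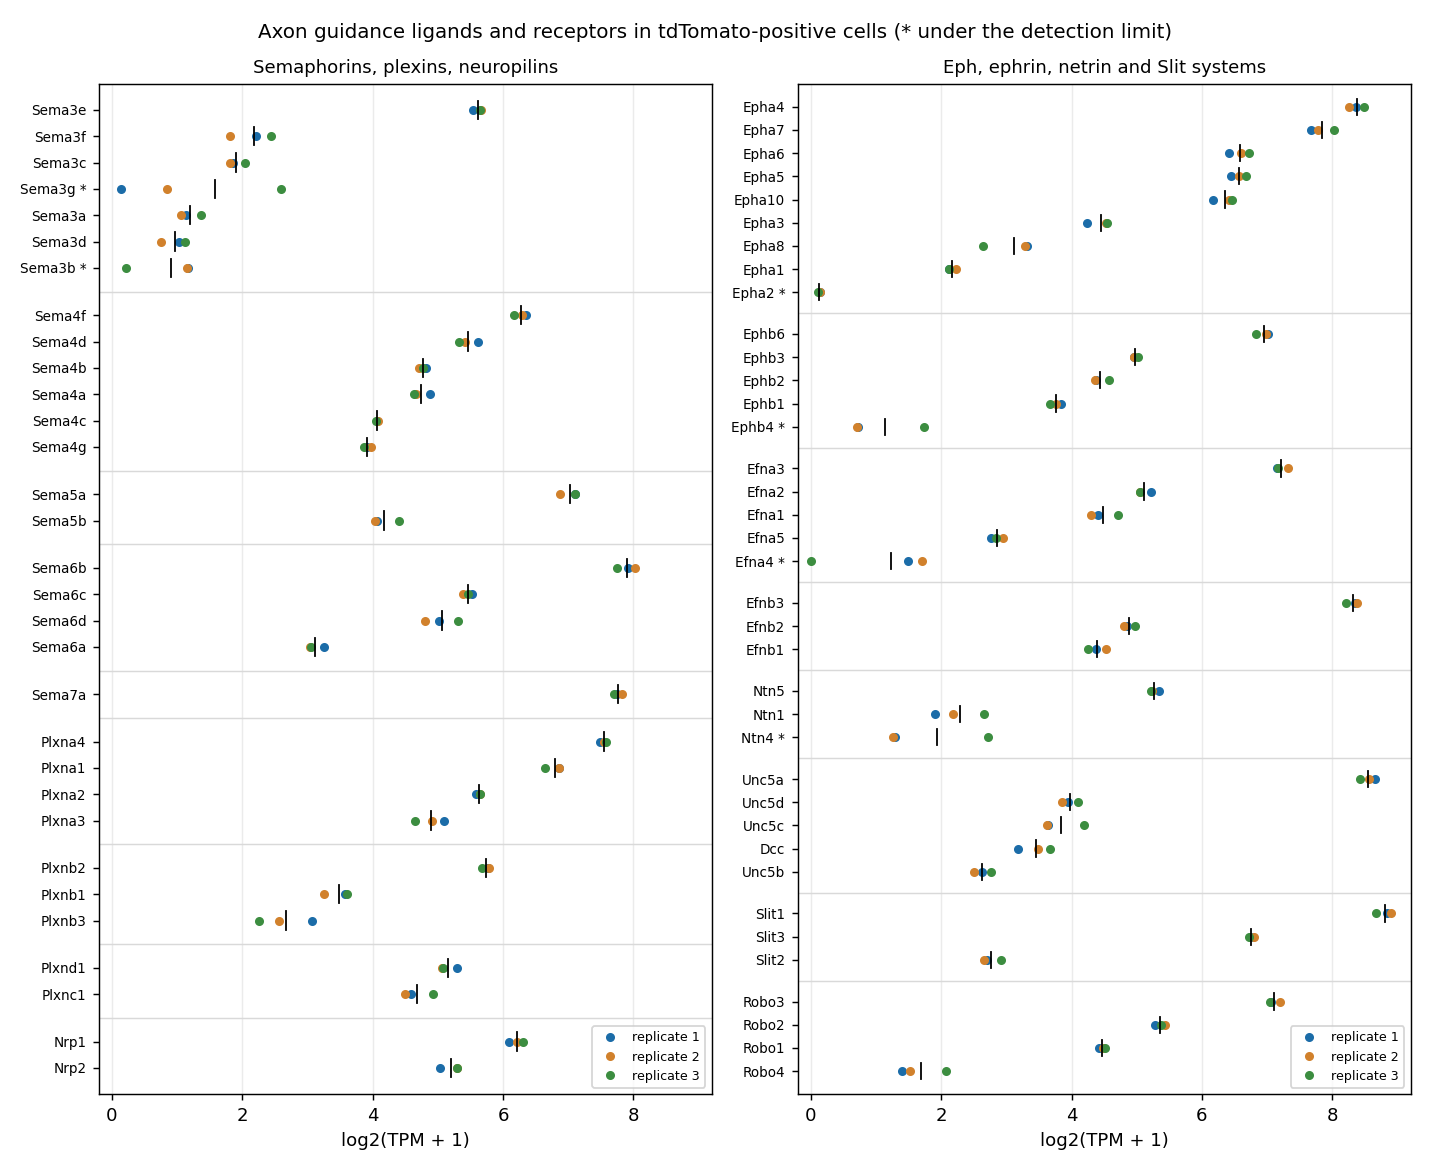
Level of each of the 68 members in each replicate on the log2(TPM + 1) scale, grouped by family, with semaphorins, plexins and neuropilins on the left and the other systems on the right. Points are the 3 replicates, black bars the log2 of the mean TPM + 1, and asterisks mark the 6 members under the limit of detection. Levels run from 0.0942 TPM for Epha2 to 447 TPM for Slit1, and the replicates lie close together except for a few low members.

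The summed level of the members was 4398 ± 46.1 TPM (SD, n = 3), and a few genes held most of it. The 15 highest members made up 72.4 ± 0.965% of the sum and the 5 highest 38.8 ± 1.5%. These 15 were 8 receptors and 7 ligands, and they came from all 4 systems.

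The highest member was Slit1, a secreted ligand of Robo receptors known as an axon repellent, with 456, 477 and 408 TPM in replicates 1, 2 and 3. Unc5a, a netrin receptor that mediates repulsion, came next with 404, 377 and 342 TPM. Slit1 was above Unc5a in every replicate. Epha4, a receptor for ephrins of both classes that is known from hippocampal dendritic spines, had 327, 306 and 357 TPM. Efnb3, a transmembrane ephrin, had 324, 332 and 296 TPM. Epha4 and Efnb3 changed places between replicates, so that their order was not set by these data. Sema6b, a transmembrane semaphorin that binds class A plexins, had 241, 258 and 214 TPM, below Efnb3 in every replicate.

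Epha7, an ephrin-A receptor, had 203, 220 and 261 TPM, and was thus highest in replicate 3, where Sema6b was lowest. Sema7a, a semaphorin anchored to the membrane by a lipid, had 213, 227 and 208 TPM. Plxna4, a receptor for class 3 semaphorins with neuropilin and for class 6 semaphorins without it, varied little, with 179, 187 and 191 TPM, and was below Sema7a in every replicate. Efna3, an ephrin that binds Epha4, had 142, 159 and 143 TPM. Antisense gene Gm15998 shares 14.1% of the exon bases of Efna3, and whether counting used strand is not given in the sources used here.

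Robo3, a Robo known above all from commissural neurons that cross the midline, had 133, 146 and 131 TPM. Sema5a, a transmembrane semaphorin with thrombospondin repeats, had 137, 116 and 137 TPM. Their order turned between replicates. Ephb6, an Eph receptor without kinase activity, had 129, 125 and 113 TPM, and Plxna1, another class A plexin, had 115, 115 and 99.2 TPM. Ephb6 was above Plxna1 in every replicate, and 10.7% of the exon bases of Plxna1 are shared with antisense gene Gm26811. Slit3 followed with 107, 110 and 105 TPM and Epha6 with 84.8, 96.2 and 105 TPM, which overlapped.

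Of the 14 steps between neighbours in this order of 15 members, 6 had the same sign in all 3 replicates, namely Slit1 over Unc5a, Efnb3 over Sema6b, Sema7a over Plxna4, Plxna4 over Efna3, Efna3 over Robo3 and Ephb6 over Plxna1. The order also depends on the length used. With the length of the longest transcript, Efna3 had 118 TPM and Robo3 144 TPM, the reverse order, while the other steps of these 6 kept theirs. Epha4 was then above Unc5a, with 324 and 302 TPM. Over all 68 members, 16 of 67 steps had the same sign in all 3 replicates. Genes of equal level would show this with a chance of 0.25 per step, and the share seen was not above that. The same sign alone thus does not settle the order of a given pair of neighbours. At the other steps the sign was not the same in all replicates.

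Sequences upstream of the start site are shown for the 4 matched genes among the 6 highest members, Unc5a, Epha4, Sema6b and Epha7, and for the 3 members that were above 2-fold in replicate 3, described further below, Sema3g, Ntn4 and Ephb4, so that the base composition of members at either end of the range can be read. Windows end before the RefSeq start site in GRCm38.p6 and run 5′ to 3′ on the strand of the gene, and capitals mark CG dinucleotides. Bases of annotated exons were left out, which were 59 for Epha4 and 13 for Sema3g. Of the high members, Unc5a, at chr13:54949161-54949410 on the plus strand, has 25 CG in 250 bases, and Epha4, at chr1:77515089-77515279 on the minus strand, has 12 in 191 bases. Sema6b, at chr17:56140344-56140593 on the minus strand, has 20 in 250 bases, and Epha7, at chr4:28812881-28813130 on the plus strand, has 25. Of the low members, Sema3g, at chr14:31217623-31217859 on the plus strand, has 8 in 237 bases. Ntn4, at chr10:93640799-93641048 on the plus strand, has 26 in 250 bases, and Ephb4, at chr5:137349859-137350108 on the plus strand, has 12. The RefSeq start of Ntn4 is 368 bases from its start in GENCODE vM21, so the Ntn4 window lies within the gene by that annotation. CG counts of the high and the low windows overlapped.
Unc5a: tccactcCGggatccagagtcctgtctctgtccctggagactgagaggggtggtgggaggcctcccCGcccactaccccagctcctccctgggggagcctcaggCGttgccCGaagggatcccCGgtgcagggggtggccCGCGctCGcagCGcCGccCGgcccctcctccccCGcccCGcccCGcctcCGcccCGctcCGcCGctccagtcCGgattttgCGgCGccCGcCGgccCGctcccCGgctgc
Epha4: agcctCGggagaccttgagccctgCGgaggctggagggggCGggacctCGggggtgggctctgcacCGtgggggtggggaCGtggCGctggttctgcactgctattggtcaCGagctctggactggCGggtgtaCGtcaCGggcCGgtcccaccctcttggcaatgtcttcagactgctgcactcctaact
Sema6b: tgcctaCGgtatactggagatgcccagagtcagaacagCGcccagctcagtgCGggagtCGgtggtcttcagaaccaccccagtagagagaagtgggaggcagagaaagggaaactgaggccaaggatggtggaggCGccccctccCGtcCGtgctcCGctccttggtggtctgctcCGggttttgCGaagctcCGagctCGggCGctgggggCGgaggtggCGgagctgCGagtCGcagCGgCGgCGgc
Epha7: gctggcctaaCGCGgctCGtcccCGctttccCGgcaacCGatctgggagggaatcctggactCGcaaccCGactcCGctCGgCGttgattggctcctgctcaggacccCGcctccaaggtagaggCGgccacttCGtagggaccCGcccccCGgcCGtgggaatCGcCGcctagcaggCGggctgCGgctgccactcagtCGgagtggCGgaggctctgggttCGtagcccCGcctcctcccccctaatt
Sema3g: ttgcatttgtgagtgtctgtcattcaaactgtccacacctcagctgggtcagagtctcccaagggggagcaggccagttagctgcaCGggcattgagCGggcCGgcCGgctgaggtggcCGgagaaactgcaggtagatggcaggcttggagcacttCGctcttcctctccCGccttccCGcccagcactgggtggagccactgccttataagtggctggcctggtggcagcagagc
Ntn4: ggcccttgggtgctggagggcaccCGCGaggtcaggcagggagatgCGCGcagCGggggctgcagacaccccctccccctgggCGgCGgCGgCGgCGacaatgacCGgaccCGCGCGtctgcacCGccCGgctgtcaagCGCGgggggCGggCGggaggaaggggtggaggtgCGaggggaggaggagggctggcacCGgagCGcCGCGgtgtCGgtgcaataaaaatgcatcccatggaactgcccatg
Ephb4: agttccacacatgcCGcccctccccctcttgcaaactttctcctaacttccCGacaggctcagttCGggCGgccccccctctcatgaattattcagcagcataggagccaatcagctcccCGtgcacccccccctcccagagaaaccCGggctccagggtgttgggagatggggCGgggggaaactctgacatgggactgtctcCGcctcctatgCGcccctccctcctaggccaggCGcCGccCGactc

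Over the 58 members matched to the RefSeq windows of 250 bases, the median ratio of observed to expected CpG was 0.640, against 0.563 for all 16473 matched nuclear protein-coding genes and 0.739 for the 9809 detected ones. The 11 matched members among the 15 highest had a median of 0.703, with a range of 0.524 to 0.947. The 12 matched among the 15 lowest had a median of 0.438, with a range of 0.116 to 1.02. These ranges overlapped. The member values use the full windows, with annotated exon bases kept. The highest value of each range came from a largely exonic window, with 232 exon bases of 250 for Slit3 and 250 for Sema3c. Some of the 58 windows lie far from the GENCODE vM21 start, such as those of Sema4d (37064 bases), Sema3a (271370 bases) and Robo1 (354843 bases). The values thus describe the windows and not promoters alone. The letters TATAAA, searched on both strands, were in 2 of the 58 member windows (3.45%), in 11.9% of all windows and in 5.79% of those of detected genes. Such matches are descriptions of the sequence and no evidence of binding.

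Receptors and ligands of each system were compared within a replicate, as the log2 difference of their summed TPM, to see which side of each pathway was higher in these cells. With 3 replicates the exact two-sided sign-flip permutation test cannot give a p under 0.25, and it gave 0.25 for each of the 4 systems. The direction of each was the same in 3 of 3 replicates.

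**Figure D2:**
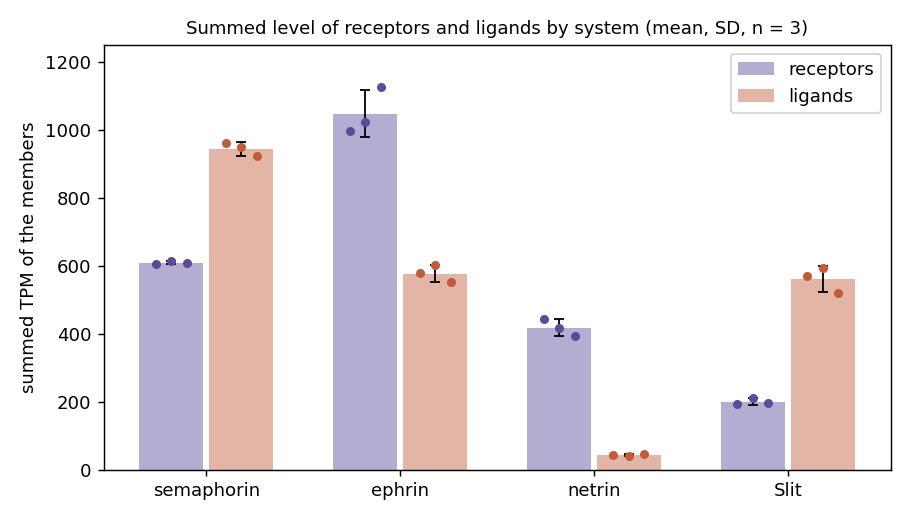
Summed TPM of receptors and ligands in the semaphorin, ephrin, netrin and Slit systems. Bars are means, error bars the SD and points the 3 replicates. Receptor sums lay above ligand sums for the ephrin and netrin systems (1047 and 576 TPM, 418 and 44.1 TPM). They lay below ligand sums for the semaphorin and Slit systems (609 and 944 TPM, 200 and 560 TPM). The netrin difference is lost when Unc5a alone is left out and all netrins are kept. The semaphorin difference turns when medians or CPM are used.

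In the ephrin system, the 14 Eph receptors had 995, 1022 and 1124 TPM in sum in replicates 1, 2 and 3, and the 8 ephrins had 577, 601 and 551 TPM. Receptors were higher by 0.86 ± 0.15 on the log2 scale (SD, n = 3). The classes differed in direction. Class A receptors had 860 ± 73.6 TPM and class A ephrins 210 ± 7.57 TPM, a log2 difference of 2.02 ± 0.14, while class B receptors had 187 ± 5.57 TPM and class B ephrins 366 ± 19.3 TPM, a log2 difference of -0.96 ± 0.05 (SD, n = 3). No test was made for these class comparisons, which were chosen after the data were seen. The medians over the members of the whole system differed by 0.03 on the log2 scale.

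Among class A receptors the level was spread over several genes. Epha4 held 38.5 ± 2.09% of the family sum, followed by Epha7, Epha6, Epha5 with 93.7 ± 7.91 TPM and Epha10, a receptor without kinase activity, with 80.6 ± 8.46 TPM (SD, n = 3). Epha3 (20.8 TPM), Epha8 (7.69 TPM) and Epha1 (3.47 TPM) were lower, and 6.01% of the exon bases of Epha1 are shared with the more highly counted Zyx on the opposite strand. Epha2, best known from epithelia, was under the limit of detection with 4, 2 and 1 counts. Of the 8 detected class A receptors, 6 had their highest value in replicate 3 (75%, against 46.6% of all detected nuclear protein-coding genes).

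Ephb6 held 65.3 ± 2.62% of the class B receptor sum, ahead of Ephb3 (30.5 TPM), Ephb2 (20.7 TPM) and Ephb1 (12.5 TPM), receptors with kinase activity that act at excitatory synapses. Efnb3 held 86.8 ± 0.716% of the class B ephrins, with Efnb2 at 28.4 TPM and Efnb1, an X-linked gene, at 20.01 TPM. Efna3 held 70.2 ± 2.11% of the class A ephrins, with Efna2 at 33.6 TPM, Efna1 at 21.3 TPM and Efna5 at 6.21 TPM. Efna4 was under the limit with 24, 16 and 0 counts, and 0 counts in replicate 3 allow up to 3 counts as a one-sided 95% limit, or 0.727 TPM. Efna1, Efna3 and Efna4 lie in a row on the minus strand of chromosome 3 between 89271733 and 89338028 (GRCm38). Efna3 was thus far above each of its neighbours on either side.

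**Figure D3:**
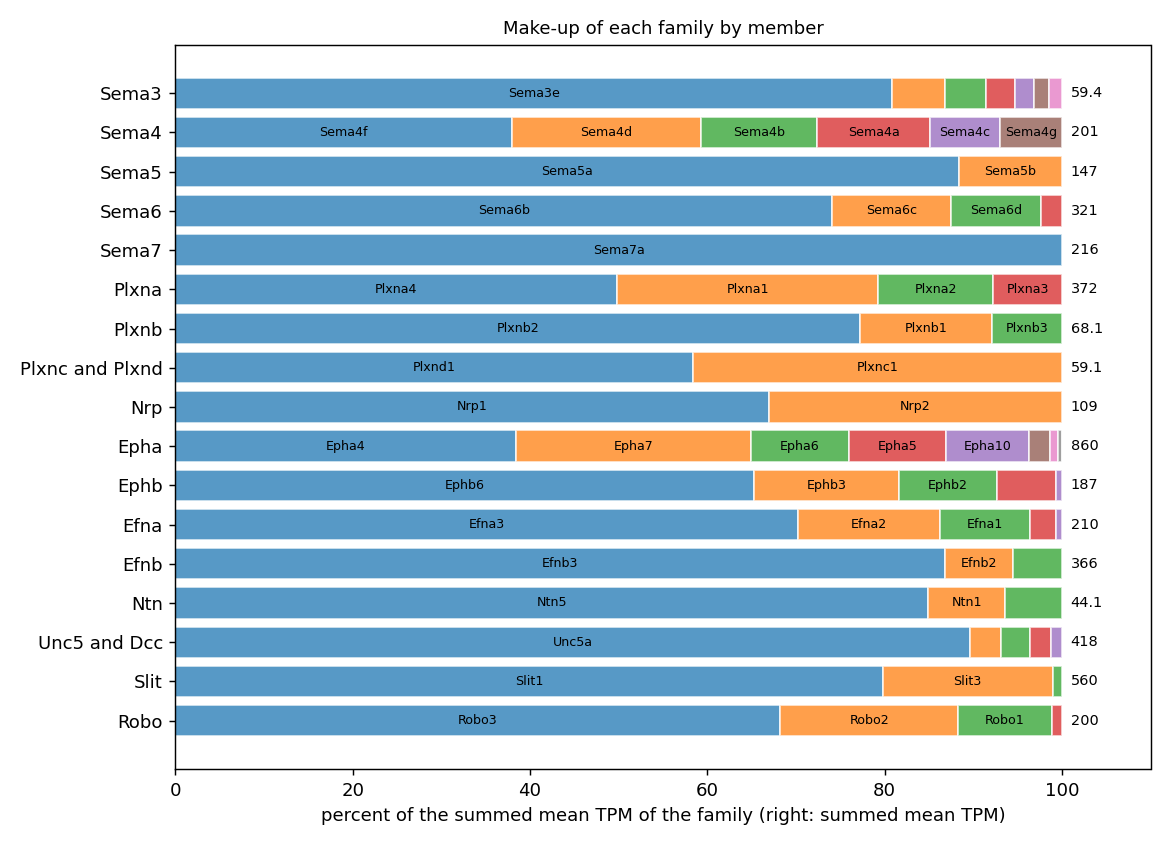
Share of each member in the summed mean TPM of its family, in percent, with families in rows and the summed mean TPM printed at the right. Names are written where a share is wide enough. Slit1, Unc5a, Efnb3, Sema5a, Ntn5 and Sema3e take most of their families, while Sema4 (201 TPM in sum) and Epha (860 TPM in sum) are divided among several members.

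In the semaphorin system, the 11 plexins and neuropilins had 605, 613 and 607 TPM in sum, and the 20 semaphorins had 962, 950 and 921 TPM. Receptors were lower by sum, with a log2 difference of -0.63 ± 0.03 (SD, n = 3). The median receptor was above the median semaphorin, by 0.82 on the log2 scale. The sums are over 20 semaphorins and 11 receptors, and the highest semaphorins were Sema6b, Sema7a and Sema5a, described above. The part of gene number or of these 3 genes in the difference was not tested.

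Of the receptors, Plxna4 held 49.8 ± 2.40% of the class A plexins, with Plxna1 next, Plxna2 at 48.4 TPM and the X-linked Plxna3 at 28.8 TPM. Plxnb2, a receptor for class 4 semaphorins, had 53.7, 54.0 and 50.0 TPM and held 77.3 ± 2.75% of the class B sum. Plxnb1 stood at 10.2 TPM. Plxnd1, which binds Sema3e without a neuropilin, had 38.3, 32.4 and 32.9 TPM, and Plxnc1, the receptor of Sema7a, averaged 24.6 ± 4.19 TPM (SD, n = 3). Nrp1, a co-receptor for Sema3a, had 67.1, 73.5 and 78.5 TPM, and Nrp2, a co-receptor for Sema3f, averaged 36.0 ± 3.70 TPM (SD, n = 3).

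Of the ligands, the secreted class 3 was low except for Sema3e, the ligand of Plxnd1, with 45.4, 49.7 and 49.1 TPM and 81.0 ± 4.52% of the class. Sema3f had 3.65, 2.53 and 4.40 TPM, Sema3c averaged 2.75 TPM, Sema3a 1.29 TPM and Sema3d 0.963 TPM. Sema3e thus had 13.6 times the mean level of the next member. Sema3d, Sema3a and Sema3e follow each other on the plus strand of chromosome 5 between 12383385 and 14256689 (GRCm38), and their levels differed this widely. Sema3b was near the limit of detection, with 50, 26 and 2 counts, and passed it in replicates 1 and 2 but not in replicate 3.

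The transmembrane class 4 was more even. Sema4f, which had 80.7, 77.3 and 70.6 TPM, held 37.9 ± 0.778% of its class. Sema4d, a ligand of plexin B receptors that oligodendrocytes also make, had 48.1, 41.6 and 39.3 TPM. Sema4b (26.2 TPM), Sema4a (25.6 TPM), Sema4c (15.7 TPM) and Sema4g (14.1 TPM) followed, each with an SD under 3 TPM. Within class 6, Sema6b held 74.0 ± 3.44%, with Sema6c at 43.0 TPM, Sema6d at 32.4 TPM and Sema6a at 7.67 TPM. Sema5a held 88.4 ± 1.27% of class 5, the rest being Sema5b with 17.1 TPM.

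Known partners differed to unlike degrees. The neuropilins had 109 ± 9.16 TPM and class 3 semaphorins 59.4 ± 4.68 TPM, a log2 difference of 0.86 ± 0.05 that was 1.65 with the length of the longest transcript, where the neuropilins had 200.2 TPM. Class A plexins had 372 ± 8.46 TPM and class 6 semaphorins 321 ± 16.1 TPM, a log2 difference of 0.22 ± 0.04 (SD, n = 3). Class B plexins were below class 4 semaphorins, with a log2 difference of -1.55 ± 0.02, and Plxnc1 was below Sema7a, with a log2 difference of -3.10 ± 0.29 (SD, n = 3). Plxnd1 was below Sema3e, with a log2 difference of -0.47 ± 0.20. Each of these had its sign in 3 of 3 replicates, and they were chosen after the data were seen and carry no test.

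In the netrin system, the 5 receptors had 443, 417 and 393 TPM in sum, and the 3 netrins had 43.8, 41.5 and 46.9 TPM, a log2 difference of 3.22 ± 0.15 (SD, n = 3). Unc5a held 89.6 ± 2.19% of the receptor sum. With Unc5a left out and all 3 netrins kept, the difference was -0.04. The other 4 receptors together thus stood at about the level of the 3 netrins, of which Ntn5 held 85.1%. Leaving out both Unc5a and Ntn5 was not tried. With medians over members the difference was 1.52. Unc5d averaged 14.7 ± 1.34 TPM, Unc5c 13.4 ± 3.40 TPM, Unc5b 5.20 ± 0.548 TPM and Dcc, the attractive netrin receptor, 9.96 ± 1.83 TPM (SD, n = 3).

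The netrin side was led by Ntn5, a secreted netrin, with 39.6, 36.6 and 36.0 TPM and 85.1 ± 7.33% of the sum. Of its exon bases, 23.4% are shared with Sec1 on the opposite strand, so that its level is uncertain where reads could be given to either gene. Ntn1, the netrin best known as an attractant of commissural axons, had 2.73, 3.53 and 5.31 TPM, and was thus low in each replicate. Ntn4, a netrin of basement membranes, had 45, 23 and 54 counts and was under the limit in replicates 1 and 2.

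In the Slit system the ligands were higher. The 4 Robos had 193, 212 and 196 TPM in sum, and the 3 Slits had 568, 593 and 519 TPM, a log2 difference of -1.48 ± 0.08 (SD, n = 3). Slit1 held 79.8 ± 1.05% of the Slits, and Slit2 was low at 5.78 ± 0.672 TPM. Robo3 held 68.2 ± 1.37% of the Robos, above Robo2 with 40.1 ± 2.04 TPM and Robo1 with 21.2 ± 0.758 TPM (SD, n = 3), receptors that bind Slits. The Robos were summed by name and not by Slit binding. Without Robo3 the log2 difference was -3.12. Robo3 lies on the minus strand of chromosome 9, from 37415669 to 37433246, and the end of Robo4 on the plus strand is 553 bp away. Robo4 had 1.63, 1.88 and 3.22 TPM, so that the pair differed widely in level.

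The members varied between replicates as much as other genes at low counts and more at high counts, by their medians. The median CV of normalized counts was 8.86% for the detected members and 8.39% for all detected nuclear protein-coding genes. At normalized counts of 1000 to 10000 the medians were 8.27% for 27 members and 6.18% for 4853 genes, and 22 of these 27 members were above the median of the genes. They were 9.32% and 9.94% at 100 to 1000, for 25 members and 5953 genes, and 7.85% and 5.90% above 10000, where there were only 4 members. Of the 15 highest members, 9 had their lowest value in replicate 3 and 4 their highest, against 31.1% and 46.6% of all detected nuclear protein-coding genes. The largest CVs among detected members were 35.8% for Robo4, 35.6% for Plxnb3, 32.1% for Ntn1, 29.0% for Epha8 and 24.9% for Sema3f. Plxnb3, a plexin known from the oligodendrocyte lineage, had 7.37, 4.88 and 3.76 TPM, and Epha8 had 9.01, 8.79 and 5.26 TPM, both lowest in replicate 3. The 8 oligodendrocyte markers summed to 821, 905 and 811 TPM in replicates 1, 2 and 3, and their part in the levels of Plxnb3 and Sema4d was not tested.

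A few low members differed most in replicate 3. Sema3g, a semaphorin known from endothelium, had 4, 16 and 59 counts, or 0.106, 0.798 and 5.04 TPM, with 95% Poisson intervals of 1.09 to 10.2, 9.15 to 26.0 and 44.9 to 76.1 counts that cover counting error only. Ntn4 had 1.44, 1.39 and 5.60 TPM. Ephb4, the ephrin-B2 receptor of venous endothelium, had 25, 13 and 28 counts, or 0.646, 0.634 and 2.34 TPM. These 3 members, all under the limit of detection, were the only ones of the 68 whose replicate 3 was above 2 times the mean of replicates 1 and 2. They were above it by 11.2-fold, 3.95-fold and 3.65-fold. Of the 17496 nuclear protein-coding genes with a count, 7.08% passed this limit, a larger share than 3 of 68. In the other direction, Efna4 and Sema3b fell below 0.5 of that mean in replicate 3, to 0 and 0.131 of it. The share of all nuclear protein-coding genes below 0.5 was not computed, so these 2 cannot be set against it. Without replicate 3 the means were 0.452 TPM for Sema3g, 1.42 TPM for Ntn4 and 0.640 TPM for Ephb4, against 1.98, 2.81 and 1.21 TPM with it.

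**Figure D4:**
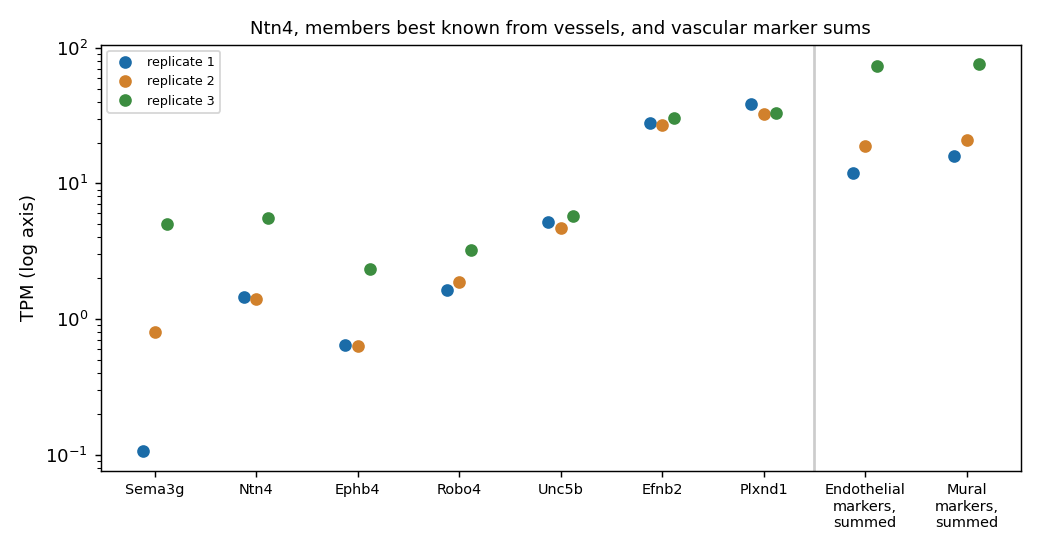
TPM on a log axis in the 3 replicates for Ntn4, for the 6 members best known from vessels, and for the summed endothelial and mural markers at the right. Replicate 3 is highest for every gene and sum shown except Plxnd1, by 11.2-fold, 3.95-fold and 3.65-fold over the mean of the other replicates for Sema3g, Ntn4 and Ephb4, while Efnb2 and Plxnd1 lie within 27.0 to 30.4 TPM and 32.4 to 38.3 TPM.

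The endothelial markers Cldn5, Tek, Flt1, Pecam1 and Cdh5 summed to 11.8, 18.8 and 73.3 TPM in replicates 1, 2 and 3, with 3 of 5 detected and none at 0. The mural markers Rgs5, Acta2, Vtn and Pdgfrb summed to 15.9, 20.7 and 75.9 TPM, with 3 of 4 detected and none at 0. Both sums were thus highest in replicate 3, and the endothelial mean of 34.6 TPM was 15.3 TPM without it. Some other marker sums were highest in replicate 3 too, with 260, 162 and 327 TPM for astrocytes, 37.5, 47.0 and 53.8 TPM for microglia, and 84.3, 67.6 and 90.7 TPM for interneurons (Slc32a1 at 0 counts in replicates 2 and 3). Of their markers, Gfap, Aqp4, Gad2 and Slc32a1 were highest in replicate 1 and C1qa in replicate 2. CA1 pyramidal markers summed to 1842, 1951 and 1770 TPM and dentate granule markers to 850, 759 and 790 TPM, neither highest in replicate 3. The 2 oligodendrocyte precursor markers summed to 1.73, 1.55 and 2.51 TPM but went opposite ways. Cspg4 had 0.673, 1.10 and 2.27 TPM, and Pdgfra, under the limit, had 1.05, 0.452 and 0.232 TPM. The part of any of these cell types in the levels of Sema3g, Ntn4, Ephb4 and Robo4 was not tested. Among the other members best known from vessels, Efnb2, the ephrin of arterial endothelium, had 27.7, 27.0 and 30.4 TPM, and Unc5b had 5.17, 4.67 and 5.76 TPM. Both were highest in replicate 3 by a small margin, and Plxnd1 was highest in replicate 1. The summed level of all 6 was 73.6, 67.4 and 79.6 TPM.

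Genes that act with these ligands and receptors were widely expressed. Of 61 genes on 5 lists of co-receptors, effectors and further cues, 59 were detected, against 57.0% of all nuclear protein-coding genes, and their median was 56.5 ± 1.58 TPM (SD, n = 3). Among 18 semaphorin co-receptors and effectors, 17 were detected, led by Dpysl2 (367 ± 36.1 TPM) and Crmp1 (239 ± 6.60 TPM), which encode collapsin response mediators, and by Mical2 (307 ± 6.72 TPM), which oxidises actin. Fes, a kinase that acts downstream of plexins, was under the limit with 19, 15 and 11 counts. All 15 Eph and ephrin effectors were detected, led by Chn1 (866 ± 32.2 TPM), which encodes alpha-chimaerin, a Rac inhibitor downstream of Epha4, and by the exchange factors Kalrn (296 ± 2.85 TPM) and Ngef (159 ± 6.63 TPM).

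All 10 netrin effectors and further receptors were detected, led by the ubiquitin ligase Trim9 (168 ± 4.11 TPM) and the kinases Fyn (153 ± 2.60 TPM) and Ptk2 (144 ± 8.64 TPM). All 7 Slit and Robo effectors were detected, led by the kinase Pak1 (248 ± 20.5 TPM) and the GTPase-activating proteins Srgap3 (234 ± 7.57 TPM) and Arhgap39 (228 ± 7.02 TPM). Of 11 further guidance cues and receptors, 10 were detected, led by Lrrc4b (514 ± 40.2 TPM), Lrrc4 (170 ± 6.83 TPM) and Lrrc4c (135 ± 13.8 TPM), synaptic adhesion proteins of which Lrrc4 and Lrrc4c bind netrin-G ligands. Draxin, a secreted cue that binds Dcc and netrin, was under the limit with 18, 6 and 10 counts. The netrin list, which includes the receptors Neo1 and Dscam, had a median of 71.4 ± 2.83 TPM. All detected nuclear protein-coding genes had a median of 37.5 ± 0.815 TPM. Of the members, Dcc and Ntn1 were low.

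**Figure D5:**
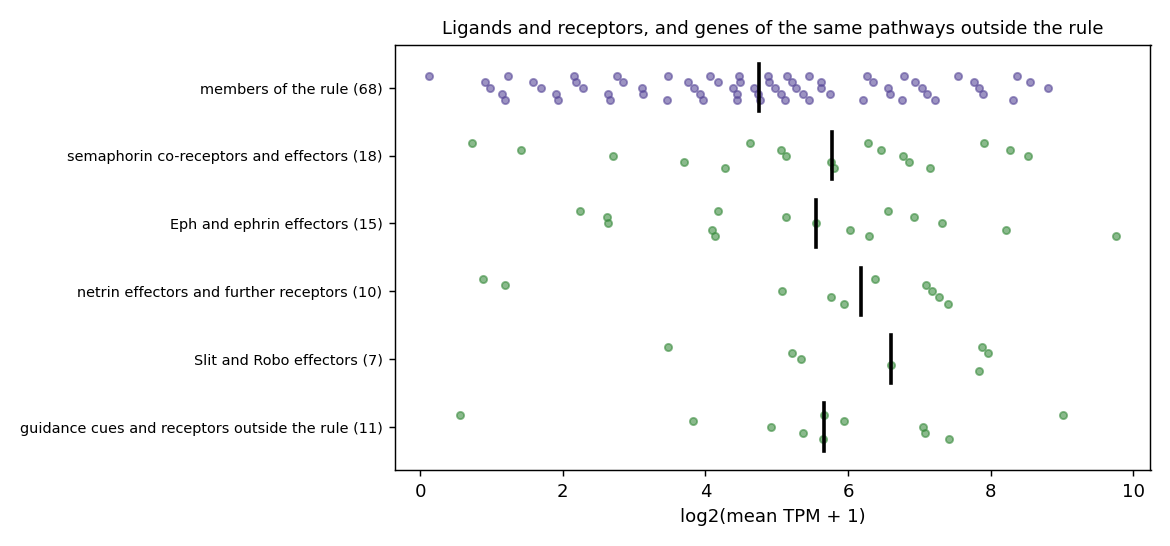
Mean TPM of the 68 members and of the genes on the 5 pathway lists, on the log2(mean TPM + 1) scale. Each point is a gene, with vertical offsets for legibility only, and black bars are medians. The mean over replicates of the median is 26.0 TPM for the members and 45.7 to 95.9 TPM for the lists.

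The members are long genes. Their median span from start to end was 51458 bp, against 17402 bp for all nuclear protein-coding genes, and 47.1% of them were longer than 100 kb, against 11.4%. Their median exon length in the count table was 6369 bp, against 3328 bp. Since the exon length divides each count, it enters every comparison of levels between members. For 57 of the 68 members it equalled the merged exons of GENCODE vM21, and the largest differences included Robo1, with 7563 bp in the count table and 16511 bp in vM21, and Sema5a, with 10809 bp in the count table and 18686 bp in vM21.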

How the data were processed

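RNA-Seq counts of 3 biological replicates were used, numbered 1 to 3 in the labels and all of 1 group. Each pooled hippocampal cells of 2 to 4 mice, digested with papain and sorted live for tdTomato. Libraries were made from poly(A) RNA with TruSeq and read as 150 bp paired ends. The deposited values are raw counts per gene, which the authors made with STAR and featureCounts on mm10 (GRCm38), per the labels. Versions, annotation release, strand, read or fragment counting and multimapping are not given in the sources used here. No column of samples was left out (0 columns).

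Gene names, types and coordinates were taken from GENCODE vM21, which named 52489 of 52636 genes, and promoter windows from RefSeq (GRCm38.p6). TPM were computed from the counts and the exon lengths in the file over the 21883 nuclear protein-coding genes, which held 82.0%, 81.5% and 79.4% of the counts. All genes were not used for this scale because Gm23935, a gene of 57 bp, held 32.7%, 48.3% and 40.5% of TPM over all genes. CPM used the total counts, and the detection limit of 1 CPM was 48.2, 25.7 and 15.8 counts. For CVs, counts were divided by size factors (median of ratios) of 1.82, 0.954 and 0.581. Log2 values used a pseudocount of 1. Intervals of counts are exact 95% Poisson intervals and cover counting error only.

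No pair of replicates agreed within sampling noise, with a chi-square of 9.58 to 20.3 per degree of freedom over genes with at least 10 counts, and all 3 were kept. The only test was the exact sign-flip permutation test, two-sided, of log2 differences within a replicate. Scripts were tested on simulated data. Named with values in each replicate were the 15 highest members, the highest of each family and the 5 detected members with the largest CV, and of each pathway list the 3 highest genes and those under the limit. Neo1 and Dscam were named in addition. The members and the lists were chosen with earlier results of these data known. Alternatives were the unit, the gene class, the length, the pseudocount, the filter, medians in place of sums and leaving out each replicate. Family pairs, the longest transcript for systems and pairs, systems without their leading receptor and the vessel sums were added after the data were seen. Python 3.11.15, numpy 2.4.6, pandas 2.3.3, scipy 1.17.1, matplotlib 3.10.9, R 4.3.3 and edgeR 4.0.16 (TMM factors only) were used.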

Additional observations from a re-analysis of the deposited data

How the results depend on the processing

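Leaving out each replicate (192 alternatives) could not turn the direction of any result. Counts, sums and shares cannot be negative, and each difference tried in this way already had 1 sign in all 3 replicates. The runs gave 62 to 63 members detected and a summed level of 4373 to 4418 TPM. The endothelial markers had 15.3 to 46.0 TPM, lowest without replicate 3. The count of detected members was 62 at a limit of 1 TPM and 68 with any count in any replicate. The summed level was 1382 TPM over all genes of the table, 919 RPKM with TMM factors, 20027 size-factor-normalized counts per kb and 4140 TPM with the longest transcript as length. These scales differ in unit. The receptor minus ligand difference on CPM, without length correction, was 0.31 for the semaphorin system, a change of sign, 2.30 for ephrin, 4.07 for netrin and -0.96 for Slit. With medians over members it was 0.82, a change of sign, for semaphorin, 0.035 for ephrin, 1.52 for netrin and -1.77 for Slit. With the length of the longest transcript it was -0.42 for semaphorin, 1.29 for ephrin, 3.01 for netrin and -1.07 for Slit. The class pairs kept their sign on CPM and with that length, at 3.94 and 2.52 for Epha and Efna, -0.34 and -0.87 for Ephb and Efnb, 1.11 and 1.65 for Nrp and Sema3, 1.53 and 0.20 for Plxna and Sema6, -1.12 and -1.87 for Plxnb and Sema4, -1.78 and -2.90 for Plxnc1 and Sema7a, and -0.81 and -0.81 for Plxnd1 and Sema3e. The system difference was -0.037 for netrin without Unc5a, a change of sign, and -3.12 for Slit without Robo3. On CPM the leading shares were 36.4% for Sema4f, 92.1% for Sema5a, 58.7% for Sema6b, 56.1% for Plxna4, 74.0% for Plxnb2, 62.7% for Nrp1, 34.4% for Epha4, 45.8% for Ephb6, 79.3% for Efnb3, 71.3% for Ntn5, 75.5% for Unc5a, 76.8% for Slit1 and 52.8% for Robo3. The difference between the median member and the median gene was 1.87 with a pseudocount of 0.1 and 0.46 over genes with a count. The cause of the changes of sign was not tested beyond the members left out. No paired analysis was possible because the series has only 1 group. With 3 replicates the smallest p of the exact permutation test was 0.25, and low members are limited by counting error.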
